A study of Gallus gallus with 16 samples.

Results

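The comparison set 3 libraries of chick (Gallus gallus) neural crest cells with SOX10 targeted against 2 libraries with SOX3 targeted, 5 of the 16 libraries of the series. Both groups were chosen by their labels, and they were set against each other because they carry similar levels of 3 abundant genes in a short region of chromosome 14, as described below. The labels give the cells as neural crest from wild-type embryos at Hamburger and Hamilton stage 18. One protocol names dissociated vagal regions as their source and another names dissected dorsal neural tube tissue, so the dissected tissue is not certain. In the sox10 group, embryos had been electroporated with plasmids for guides sox10_g1 and sox10_g2 driven by a U6 promoter, and in the sox3 group with the corresponding plasmids sox3_g1 and sox3_g2. All libraries of the series, the control included, also received the plasmid pCAG Cas9-2A-Citrine, which encodes the Cas9 nuclease and the fluorescent protein Citrine, and Citrine-positive cells were sorted. The other groups served as reference levels: tfap2b with 2 guide plasmids (3 libraries), msx1 with 1 (3 libraries), a double group with both tfap2b guides and sox10_g1 (3 libraries), and a Cas9 control without guides (2 libraries). Electroporation gives mosaic embryos, and the extent of editing at either locus was not analysed here.

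SOX10 and SOX3 are transcription factors of the SRY-related HMG-box family, which bend DNA and regulate genes together with partner factors. SOX10 belongs to the SOXE subgroup and is required in vertebrates for glia, melanocytes and enteric progenitors that arise from the neural crest. SOX3 belongs to the SOXB1 subgroup, which is best known for keeping neural progenitors of the neural tube undifferentiated. The comparison asks how the transcriptome of sorted crest cells differs when factors of these 2 subgroups are targeted in the same way.

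Genes were listed by Ensembl identifier without symbols, and 0 of the 24881 identifiers matched the reference gene table. SOX10 and SOX3 transcripts, neural crest markers and markers of other cell types were therefore not analysed here, and genes are described by position (assembly galGal5), structure and level. Since the cells were measured in bulk, fewer cells of a type and less RNA per cell cannot be told apart in any of the differences below.

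Read counts per gene summed to 9112556, 9938456 and 10263454 in the sox10 libraries and to 6049569 and 14947150 in the sox3 libraries. Thinned to an equal depth of 5721022 counts, the sox10 libraries had 12674, 12602 and 12835 genes with at least 1 read. The sox3 libraries had 14491 and 14599, so the groups did not overlap, and the mean difference, sox10 minus sox3, was -1841.3 genes. An exact permutation test of 3 against 2 libraries (two-sided) gave p = 0.10, the smallest value this design allows. Over the 9 library measures tested in this way, the adjusted p was 0.15. With at least 5 reads required, the difference was -2009.8 genes. The other groups ranged from 13185 to 13802 genes (tfap2b and double) and from 14485 to 14924 genes (msx1 and control).

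**Figure D1:**
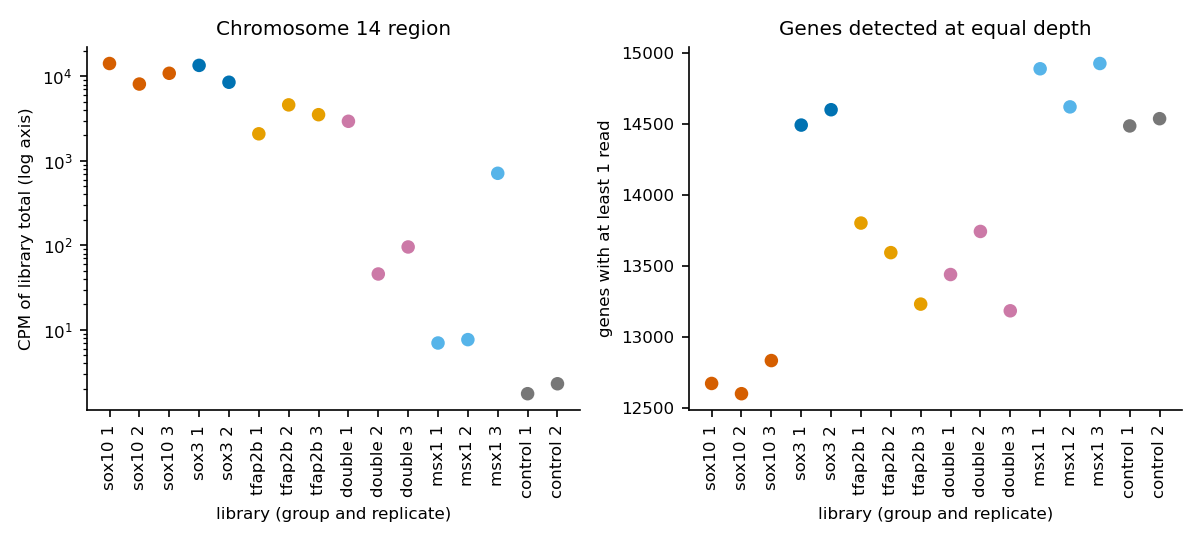
Left, summed level of the chromosome 14 region in each library, in CPM of the library total on a log axis; right, number of genes with at least 1 read after thinning to 5721022 counts (the axis does not start at 0). Each point is 1 library and colours mark groups. The sox10 and sox3 libraries share the highest region levels, but the 3 sox10 libraries have the fewest genes, 12602 to 12835, and the sox3 libraries 14491 and 14599.

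The sox10 libraries also spread more among themselves than the sox3 libraries did. The median absolute difference between a pair of libraries was 0.70, 0.74 and 0.87 on the log2 scale for the 3 sox10 pairs and 0.21 for the sox3 pair. The mean squared count difference, as a multiple of that from sampling noise alone, was 7.42 for the sox3 pair and 52.9 to 84.1 for the sox10 pairs. The sox3 libraries thus differed by more than sampling noise, which does not show that they are separate samples. They were kept as 2 samples. The labels do not state whether replicate libraries had separate embryos as their source. The p-values therefore cover only the spread between the libraries at hand, and that spread may be technical.

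The region on chromosome 14, which holds 3 neighbouring genes, the middle one at 12160597 to 12161521, had 14178, 8102 and 10863 CPM (read counts scaled to an equal library total) with sox10 guides and 13475 and 8510 CPM with sox3 guides. On library totals, both groups reached the same range, which is what the pair was chosen for and is not a finding. No other library exceeded 4592.5 CPM, and the control libraries held 1.76 and 2.30 CPM. All 3 genes were tested, with libraries scaled by TMM (the trimmed mean of M-values). On that scale the genes averaged 4805, 3206 and 5900 CPM in the sox10 group and 3279, 2189 and 4262 CPM in the sox3 group. They have 4, 3 and 3 exons, and exons of the first overlap another gene, so its value is uncertain. Their fitted log2 fold changes, sox10 minus sox3, were 0.55 (95% interval -3.32 to 4.42), 0.55 (-3.68 to 4.78) and 0.47 (-3.65 to 4.59). None passed the threshold (adjusted p 0.831, 0.846 and 0.866, quasi-likelihood F test in edgeR, Benjamini-Hochberg). The pair was chosen for similar levels of these genes, so this outcome is not a test of them. The intervals use a spread estimated over all groups, including the double libraries, where the first gene had 1172, 21.4 and 39.5 CPM. They are too wide to show that the levels are alike. An abundant gene on chromosome 1 (194562710 to 194576539, uncertain through exonic overlap) followed the same order of groups. Its level on library totals was 3531, 2025 and 2777 CPM with sox10 guides, and 2774 and 1806 CPM with sox3 guides. Scaled by TMM, it was 4422, 2413 and 3661 CPM with sox10 guides, and 2495 and 1557 CPM with sox3 guides.

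Beside these genes, a large share of genes differed between the groups. Of 14081 genes tested, 2239 were higher (15.9%) and 3038 lower (21.6%) in the sox10 group than in the sox3 group, 37.5% in all (adjusted p under 0.05, quasi-likelihood F test in edgeR, Benjamini-Hochberg, all 16 libraries in the fit). Differences were larger among the lower than among the higher genes. The median log2 fold change was -2.45 among the genes called lower and 1.46 among those called higher, against -0.28 over all genes tested. Differences of 4-fold or more were reached by 1902 of the lower and 357 of the higher genes, and 16-fold or more by 744 and 25. Fewer genes were detected at equal depth in the sox10 libraries, as given above, and the part of this in the fold changes of low genes was not tested. The split by direction depends on the scaling of libraries. The scaling factors used (TMM) were 0.759 to 0.839 in the sox10 and 1.11 to 1.16 in the sox3 libraries. They averaged 0.897 in tfap2b, 0.957 in double, 1.23 in msx1 and 1.15 in the control. With another scaling (RLE size factors), 2384 genes were higher and 2873 lower, and the median over all genes tested was -0.20.

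The count of changed genes rested on the sox3 group, which had 2 libraries. It was 3522 without sox3 replicate 1 and 3359 without sox3 replicate 2, and 5381 to 5452 without any 1 sox10 library. With the 5 libraries filtered, scaled and fitted alone, 3008 of 12295 genes tested passed, 1674 higher and 1334 lower. The excess of lower genes was not kept, and the median log2 fold change was -0.13. The parts of the filter, the scaling and the spread of the other groups in this were not tested. Of those 3008 genes, 2983 were among the 5277 and had the same direction.

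**Figure D2:**
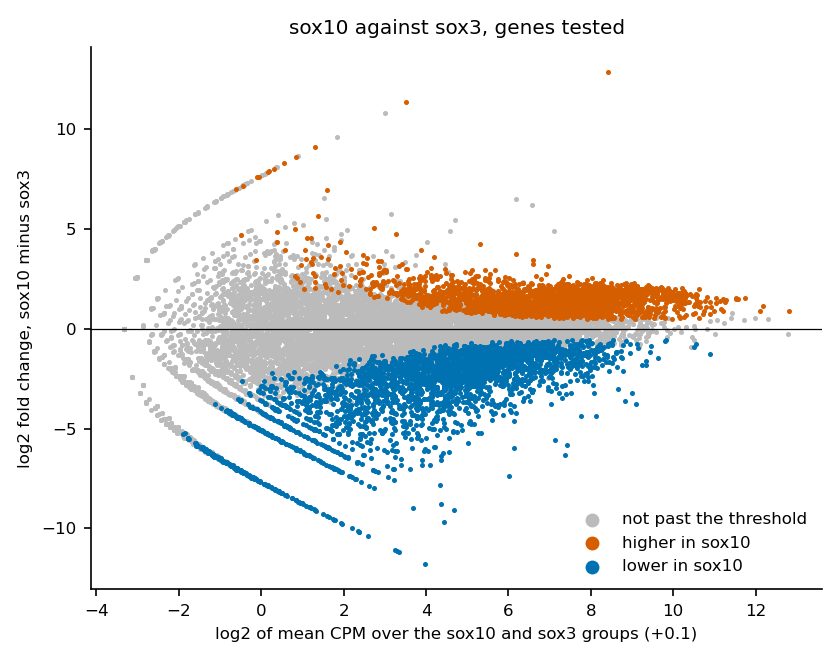
Fitted log2 fold change, sox10 minus sox3, against the log2 of the mean CPM over both groups (0.1 added) for the 14081 genes tested. Each point is 1 gene. Genes higher in the sox10 group (2239, orange) lie mostly at high levels, and genes lower (3038, blue) reach larger folds at low and middle levels; curved lines of points at the left are genes with 0 counts in 1 of the groups.

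Libraries of the groups did not overlap for 8315 genes, 59.1% of those tested, with the sox10 libraries higher for 3114 (22.1%) and lower for 5201 (36.9%). With so few libraries, many genes separate without any difference between the groups. How many was not computed, so this share is a description only. Among genes past the threshold, 2202 of the 2239 higher and 3036 of the 3038 lower genes had no overlap. The typical size per library can be read from medians over the called genes. The genes called higher had a median level of 204, 192 and 218 CPM in the sox10 libraries (scaled by TMM, the trimmed mean of M-values) and of 80.1 and 78.5 CPM in the sox3 libraries. Genes called lower had medians of 4.81, 5.88 and 4.62 CPM with sox10 guides and 31.4 and 32.1 CPM with sox3 guides. These values describe the calls and do not test them.

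Few genes could be shown to be steady. For 1064 genes, 7.56% of those tested, the 95% interval of the fold change lay within 2-fold in either direction and the gene was not called, and 851 of these had a mean of at least 50 CPM over all libraries. For 7740 of the 8804 genes not called, the interval reached past 2-fold, so a difference of that size is not excluded for them.

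The 4 genes named by rule are those with the largest fitted folds among called genes with at least 5 CPM in a group and no overlap between libraries. ENSGALG00000019061 (chromosome 1, 182507123 to 182513346, plus strand, 10 exons, within the span of another gene but without exonic overlap) had 37.2 and 25.7 CPM in the sox3 libraries. None of the 3 sox10 libraries had a count (0 in each). Taking 3 counts summed over the group as the floor, the gene was at least 225-fold lower. Its level was 0 in every tfap2b, double and control library and in msx1 replicates 2 and 3, with 0.882 CPM in msx1 replicate 1, so the sox3 libraries alone were high. ENSGALG00000010101 (chromosome 8, 20486389 to 20487739, plus strand, 3 exons) had 19.0 and 21.2 CPM in the sox3 libraries. With 0 counts in every sox10 library, it was at least 160.5-fold lower. In the remaining 11 libraries it ranged from 0 to 0.815 CPM. Both genes were lower in the sox10 than in the sox3 group (adjusted p 0.00385 and 0.00144, quasi-likelihood F test in edgeR, Benjamini-Hochberg). ENSGALG00000010101 passed the threshold in 16 of 16 alternative settings and ENSGALG00000019061 in 15 of 16, the exception being DESeq2 (adjusted p 0.113). Over these alternatives the adjusted p ranged from 5.17e-06 to 0.0120 for the first and from 0.00121 to 0.113 for the second.

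ENSGALG00000002511 (chromosome 26, 3951941 to 3974291, plus strand, 31 exons, span overlapping another gene but no exon) had 4.81, 4.20 and 8.48 CPM in the sox10 libraries. In the sox3 libraries it had 0 and 0.058 CPM, which is 1 count over the group. The ratio was 140 (95% exact binomial interval 24.7 to 5563, counting error only). The fitted log2 fold change was 6.94 (95% interval 3.10 to 10.8). Group means elsewhere were 0.415 CPM in the control, 0.602 in msx1, 1.36 in tfap2b and 1.79 in the double group, where replicate 3 reached 4.62 CPM. ENSGALG00000016662 (chromosome 3, 107785815 to 107811652, plus strand, 6 exons) had 28.3, 6.83 and 3.34 CPM with sox10 guides and 0.595 and 0.231 CPM in both of sox3 (log2 fold change 5.02, SE 1.77). One sox10 library was thus several times above the others, and tfap2b replicate 2 with 3.96 CPM also lay above the lowest sox10 library. Both genes rose (adjusted p 0.00666 and 0.0345, quasi-likelihood F test in edgeR, Benjamini-Hochberg). Neither call held in every alternative. ENSGALG00000002511 passed in 13 of 16 alternatives and lost its call without either sox3 library. Its log2 fold change was then 6.46 (without replicate 1) and 9.35 (without replicate 2), so the call needed both sox3 libraries. ENSGALG00000016662 passed in 11 of 16. It lost its call without sox10 replicate 1 (log2 fold change 3.68, adjusted p 0.105, quasi-likelihood F test in edgeR). The same happened without sox3 replicate 1 or 2 (log2 fold change 5.74 and 4.41).

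**Figure D3:**
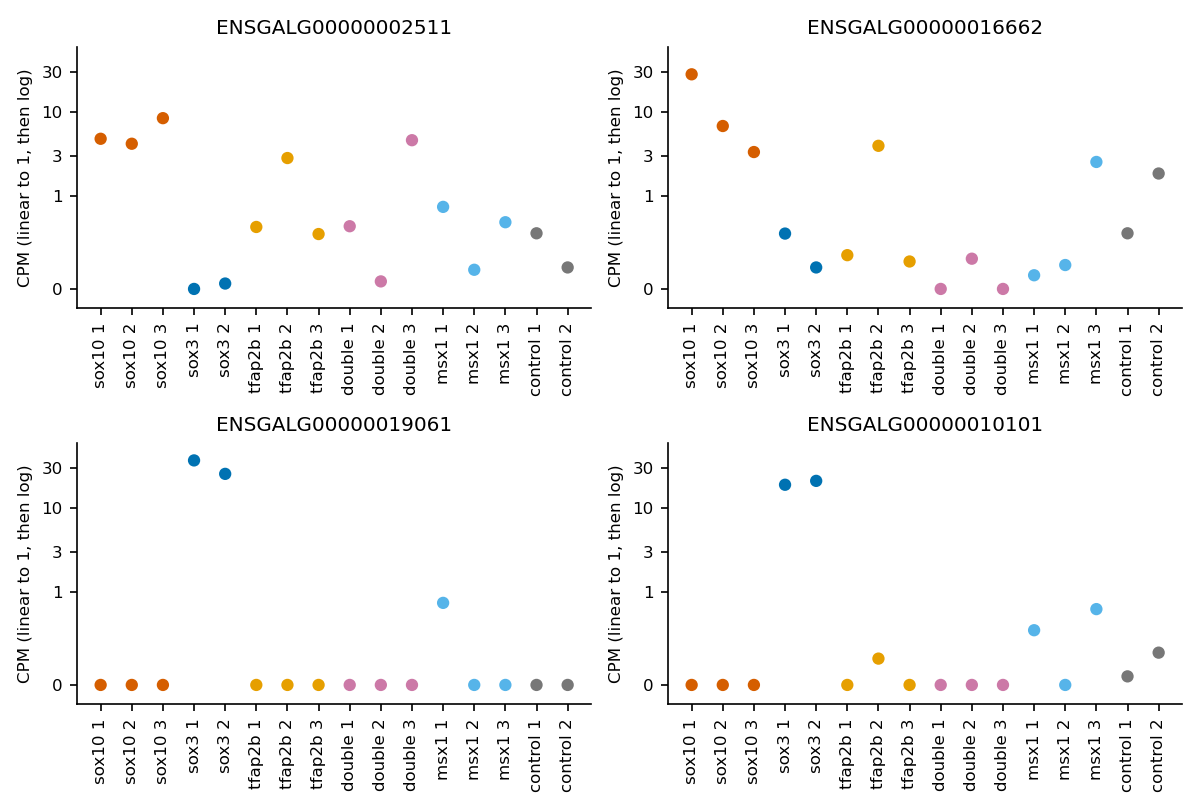
Level of the 4 named genes in each of the 16 libraries, in TMM-scaled CPM; the vertical axis is linear up to 1 and logarithmic above. Each point is 1 library and colours mark groups. Both genes in the lower row are at 19.0 to 37.2 CPM in the sox3 libraries and at 0.882 CPM or less elsewhere, while both in the upper row are above the sox3 libraries in all 3 sox10 libraries.

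A wider set of genes had no counts in any sox10 library. There were 16 genes with 0 counts in all 3 sox10 libraries and at least 5 CPM in both sox3 libraries. Each of the 16 was called lower, which follows largely from how they were chosen. Lower bounds by the floor of 3 counts, for counting error only, were 41.2-fold to 225-fold. No gene had the opposite pattern of 0 counts in both sox3 libraries and at least 5 CPM in every sox10 library. Without a minimum level, 445 tested genes had 0 counts in all 3 sox10 libraries and 140 had 0 counts in both sox3 libraries. The 16 genes had a median group mean of 9.49 CPM in the sox3 group, 11.2 in the control and 8.57 in the msx1 group. Their medians were 0.469 CPM in the tfap2b group and 0.661 CPM in the double group, and 13 and 10 of them lay under 1 CPM there. In the control and msx1 groups 2 of the 16 lay under 1 CPM. These were ENSGALG00000019061 and ENSGALG00000010101, which were high in the sox3 group alone.

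Genes at high levels were called in the other direction more than low ones. Among genes tested with a mean of at least 100 CPM over the 16 libraries, 1332 of 2556 were higher (52.1%) and 374 lower (14.6%), with a median log2 fold change of 0.69. Among genes from 20 to 100 CPM, 654 of 3915 were higher and 1166 lower (median -0.32), and from 5 to 20 CPM 185 of 3063 were higher and 793 lower (median -0.61). Below 1 CPM, 14 of 1915 genes were higher and 189 lower. The mean over the 16 libraries includes the compared libraries, so a gene's class of level is not independent of its difference. Counts and medians by level are therefore a description only. The share of counts in the 100 most abundant genes of a library was 19.9%, 19.2% and 19.3% in the sox10 libraries and 16.5% and 14.4% in the sox3 libraries. A list of the 100 most abundant genes of 1 group favours genes that are high in that group, so its calls are a description only. The list from the sox10 group (1463 to 9273 CPM on average) had 88 genes called higher, 0 lower and 12 not called. The list from the sox3 group (722 to 7652 CPM) had 47 higher, 15 lower and 38 not called, and 55 genes were on both lists.

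The calls were then counted by gene structure. Tested genes were split into 5 classes of nearly equal size by exonic length. The shortest class (62 to 1096 bp) held 520 higher and 391 lower among 2819 genes, and its median log2 fold change was 0.21. The longest class (3340 to 26070 bp) held 220 higher and 776 lower among 2815 genes, and its median was -0.54. The contrast between these classes varied with level. Of the 300 short genes at 100 CPM or more, 254 were higher and 4 lower (median 1.78), whereas of 572 long genes 119 were higher and 168 lower (median -0.14). At 20 to 100 CPM, the medians were 0.67 for 374 short and -0.56 for 1099 long genes. They were -0.01 and -0.74 at 5 to 20 CPM, -0.16 and -0.87 at 1 to 5 CPM, and -0.48 and -0.56 under 1 CPM, where short and long genes lay close together. Genes with over 15 exons (217 of 3040 higher, 918 lower) showed a median of -0.67. Genes with 2 to 5 exons had one of 0.14 (801 of 4123 higher, 631 lower), and the 567 single-exon genes had a median of -0.72 (37 higher, 118 lower).

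The average exonic length of the gene to which a read was assigned was 2298, 2338 and 2151 bp in the sox10 libraries and 2631 and 2687 bp in the sox3 libraries. These groups did not overlap (exact permutation test, two-sided, p = 0.10, adjusted p = 0.15, n = 3 and 2). Group means elsewhere were 2355 bp in tfap2b, 2461 bp in double, 2838 bp in msx1 and 2775 bp in the control. A difference of this kind is thus not particular to the sox10 and sox3 groups. The part of transcript length in the differences of single genes was not tested beyond the following fit. With trends of exonic length and chromosome class removed from each library, 5188 genes passed the threshold, 2301 higher and 2887 lower.

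**Figure D4:**
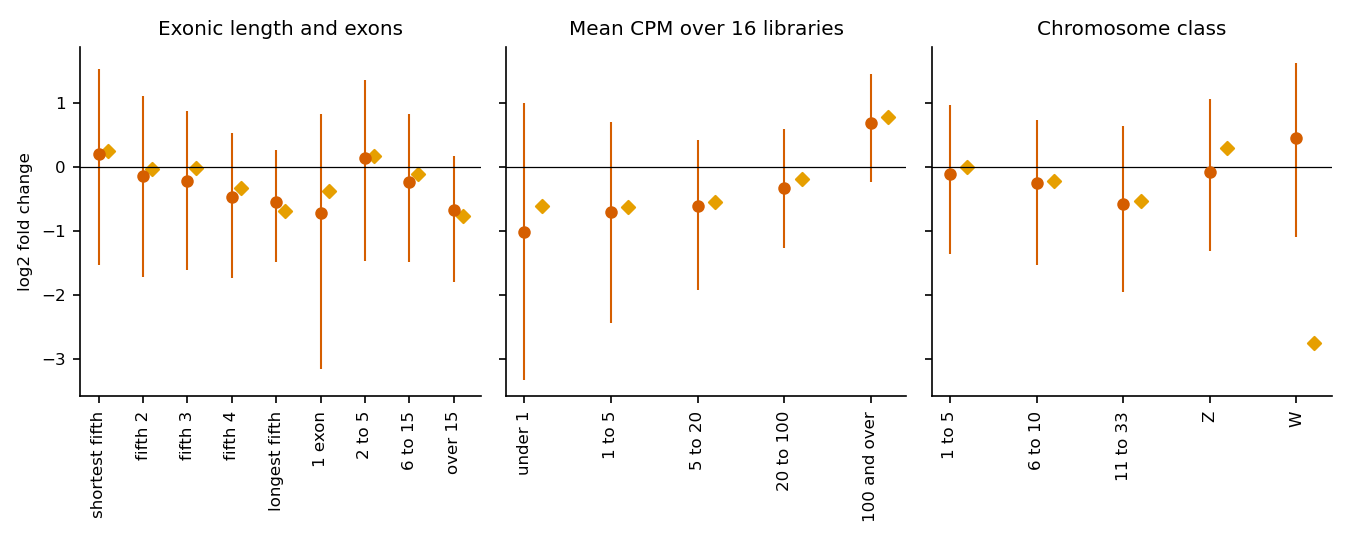
Median log2 fold change of groups of tested genes by exonic length and exon number (left), mean level (middle) and chromosome class (right). Circles give sox10 minus sox3 with bars from the lower to the upper quartile over genes, and diamonds give the median of tfap2b minus msx1, which shares no library with it. The medians fall from 0.21 to -0.54 with exonic length and reach 0.69 in the highest class of level, while the circles and diamonds part widely for the W chromosome.

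Calls by location are given beside the shares over all genes tested (15.9% higher, 21.6% lower), and differences between chromosome classes were not tested. On chromosomes 11 to 33, 647 of 4776 genes were higher (13.6%) and 1285 lower (26.9%), with a median of -0.57. On chromosomes 1 to 5, 1132 of 6300 were higher and 1143 lower (18.1%), with a median of -0.10. Among the chromosomes with at least 20 tested genes, chromosome 22 had the lowest median (-0.88, with 10 of 115 genes higher and 37 lower). Chicken males carry 2 Z chromosomes and females a Z and a W, so reads on W reflect the share of female tissue. Counts on W were 210, 169 and 161 CPM with sox10 guides and 171 and 162 CPM with sox3 guides, and these ranges overlapped. Z-linked genes took 5.13%, 5.37% and 5.36% of counts in the sox10 libraries and 4.58% and 4.61% in the sox3 libraries, without overlap. Their share averaged 5.51% in tfap2b, 5.14% in double, 3.81% in msx1 and 4.11% in the control. Of 689 Z genes tested, 133 were higher (19.3%) and 123 lower (17.9%), with a median of -0.07. Over all genes the shares were 15.9% and 21.6% and the median -0.28.

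Called genes were next examined for their neighbours. There were 11 stretches of at least 5 consecutive tested genes called in the same direction. Of these, 4 were higher (21 genes) and 7 lower (41 genes), which hold 0.938% and 1.35% of the genes called in each direction. With 15.9% of all tested genes called higher and 21.6% lower, some stretches arise without any clustering. How many was not computed, so the stretches are listed by position and are not shown to be clusters. The longest, on chromosome 18 (9838507 to 9953475), had 9 lower genes with a median log2 fold change of -2.61 and a median level of 3.13 CPM in the sox10 and 29.3 CPM in the sox3 group. A stretch of 7 lower genes lay on chromosome 13 (10144882 to 10196257, median -3.28, from 26.7 to 4.25 CPM), with exonic overlaps for 3 of its genes. On chromosome 27 (3782436 to 3820558), 5 genes were higher by a median of 2.42, with median levels of 11.3 CPM in the sox10 group, 2.24 CPM in the sox3 group and 0.776 to 5.52 CPM in the other groups. A stretch of 6 genes on chromosome 15 (9322891 to 9342871) was higher by a median of 1.24 (200.019 against 84.0 CPM). In the stretches on chromosomes 18, 13 and 15 the tfap2b and double groups lay near the sox10 level and the msx1 and control groups near the sox3 level.

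The position of the other groups was then counted over all called genes. For 1582 of the 2239 higher genes (70.7%), mean log2 levels of the control and msx1 groups were nearer to sox3 and those of the tfap2b and double groups nearer to sox10. This held for 1619 of the 3038 lower genes (53.3%) and for 35.6% of all genes tested. For 556 lower genes (18.3%, against 18.9% of all genes tested), all 4 other groups were nearer to sox3, so that the sox10 group alone was low by this measure. This share was near that over all genes, so the pattern does not set the lower genes apart. The 556 genes had a median level of 2.70 CPM in the sox10 group, 18.3 in sox3 and 10.7 to 23.6 in the other groups. For 133 higher genes (5.94%, against 18.9% of all genes tested), the sox10 group alone was high in the same way, a share below that over all genes. The sox3 group stood alone for 47 of the lower (1.55%) and 16 of the higher genes (0.715%), against 4.56% of all genes tested. The median level of those 47 genes was 63.3 CPM in the sox3 group and 3.84 to 9.94 CPM in the other 5 groups. Being nearer to a group is a description and was not tested gene by gene.

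The differences were also set beside tfap2b against msx1, a comparison of guide-carrying groups that shares no library with it. That comparison gave 2498 higher (17.7%) and 2749 lower genes (19.5%). Its groups also differed in the average exonic length of counts, the share of the most abundant genes and the Z share, as given above. Of the genes higher in sox10 than in sox3, 1920 were also higher in tfap2b than in msx1, which is 85.8% of the first list and 76.9% of the second. Of the lower genes 1875 were lower in both, 61.7% and 68.2% of the lists. Opposite calls were made for 3 and 18 genes. Over the genes called for sox10 against sox3, the median log2 fold change in tfap2b against msx1 was 1.34 for the higher and -1.60 for the lower genes.

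The difference between both contrasts was then tested for each gene, as (sox10 minus sox3) minus (tfap2b minus msx1). It passed the threshold for 39 genes (0.277%), 3 with a more positive (0.0213%) and 36 with a more negative value (0.256%) for sox10 against sox3. At an unadjusted p under 0.05 there were 489 and 933 genes, and DESeq2 called 339 in all. Of the 36 genes, 31 were themselves lower in sox10 than in sox3, and their median log2 fold change was -2.76 there and 0.52 in tfap2b against msx1. A gene that failed this test is not shown to differ equally in both pairs. The 23 tested W genes had a median of 0.46 in sox10 against sox3 and -2.74 in tfap2b against msx1. Counts on W were 74.1 to 154 CPM in the tfap2b libraries and 229 to 843 CPM in the msx1 libraries.

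**Figure D5:**
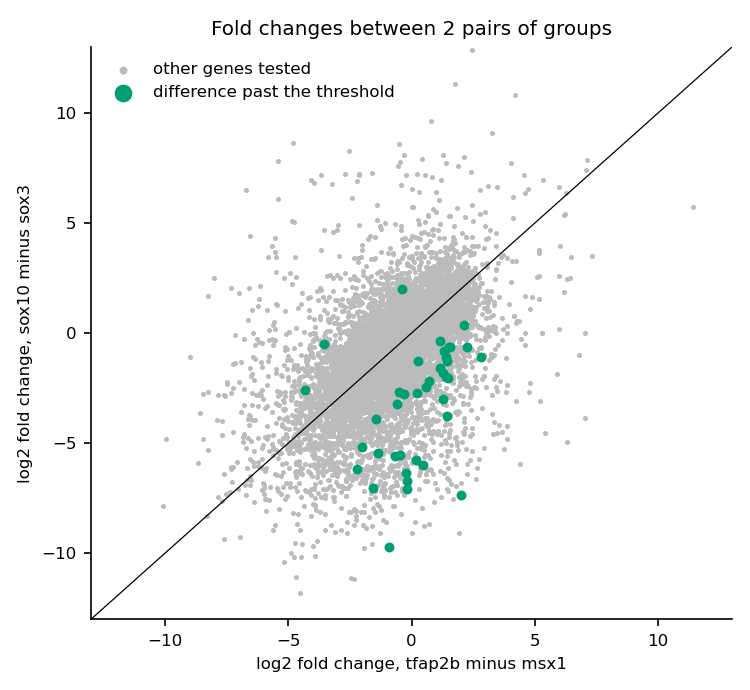
Log2 fold change of each tested gene in sox10 minus sox3 (vertical) against tfap2b minus msx1 (horizontal), with the line of equal values. Each point is 1 gene, and the 39 genes whose difference between the contrasts passed the threshold are green. Of these, 36 lie below the line and 3 above it.

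Of the 36 genes, 2 had the largest differences at a level of at least 5 CPM. ENSGALG00000034078 (chromosome 1, 54727513 to 54743775, plus strand, 10 exons, uncertain because its exons overlap another gene) had 0, 0 and 0.128 CPM with sox10 guides and 10.4 and 6.69 CPM with sox3 guides. With 1 count in the sox10 group, the sox3 level was 181 times higher (95% exact binomial interval 32.1 to 7184, counting error only). The fitted log2 fold change of this gene, sox10 minus sox3, was -7.37 (95% interval -9.68 to -5.06). Its levels with tfap2b guides were 22.5, 6.04 and 13.2 CPM, with the msx1 guide 5.29, 1.44 and 3.88 CPM, and in the control 33.2 and 36.9 CPM. ENSGALG00000040504 (chromosome 15, 8402897 to 8419021, plus strand, 12 exons) had 7.58 and 7.27 CPM with sox3 guides. No sox10 library had a count (0 in each), so it was at least 57.4-fold lower. All other groups expressed it, at group means of 4.98 to 9.75 CPM, so that it was absent from the counts of the sox10 libraries only. The differences between contrasts were past the threshold for both (adjusted p 0.0140 and 0.0380, quasi-likelihood F test in edgeR, Benjamini-Hochberg).

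Of the 3 genes with a more positive difference, 2 are named by the rule. ENSGALG00000012361 (chromosome 5, 58040392 to 58064238, minus strand, 18 exons) had 72.7, 69.7 and 44.4 CPM with sox10 guides and 97.5 and 79.8 CPM with sox3 guides (log2 fold change -0.51, 95% interval -1.37 to 0.35). It was at 16.2, 8.02 and 8.06 CPM with tfap2b guides and at 91.3, 89.4 and 200.1 CPM with the msx1 guide (log2 fold change -3.55, SE 0.41). Its level thus fell in tfap2b against msx1 (adjusted p 7e-06, quasi-likelihood F test in edgeR) and did not pass the threshold in sox10 against sox3. The control libraries had 37.2 and 42.3 CPM and the double libraries 17.6 to 34.7 CPM, so every msx1 library lay above the control. ENSGALG00000005580 (chromosome 8, 13340307 to 13388696, minus strand, 7 exons) had 72.2, 32.9 and 45.2 CPM with sox10 guides and 11.2 and 13.7 CPM with sox3 guides (log2 fold change 2.00, SE 0.36), and rose (adjusted p 0.000433). In tfap2b it was at 15.99 to 18.5 CPM and in msx1 at 20.3 to 24.7 CPM. The control had 12.0 and 12.2 CPM. The double group had 30.8 to 37.1 CPM, which overlaps the sox10 libraries. The difference between contrasts was 3.04 (SE 0.58) and 2.398 (SE 0.47) for these genes, each with an adjusted p of 0.0380 (quasi-likelihood F test in edgeR, Benjamini-Hochberg).

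The number of genes past the threshold for this difference depended on single libraries and on other settings. It was 1 and 2 without sox3 replicate 1 or 2, 2 without msx1 replicate 1 or 2, and 19 without msx1 replicate 3. Leaving out tfap2b replicates 1, 2 and 3 gave 24, 83 and 15, and leaving out sox10 replicates 1, 2 and 3 gave 106, 200 and 139. ENSGALG00000034078 lost its call without sox3 replicate 1 (adjusted p 0.0742). ENSGALG00000012361 lost its call without either sox3 library (0.171 and 0.271), without tfap2b replicate 3 (0.0801) and without msx1 replicate 1, 2 or 3 (0.0999, 0.0761 and 0.0841). ENSGALG00000005580 and ENSGALG00000040504 lost theirs without either sox3 library, tfap2b replicate 1 or 3, or any msx1 library (adjusted p 0.0652 to 0.282 and 0.0595 to 0.187). In other settings, ENSGALG00000005580 lost its call without the expression filter (0.0526) and with trends removed (0.0761). ENSGALG00000040504 lost it by limma-voom (0.116) and with thinned counts (0.0545). Each of these last 2 genes passed in 9 of 20 alternatives, ENSGALG00000012361 in 12 and ENSGALG00000034078 in 18. Over the 20 alternatives the adjusted p of the 4 genes ranged from 1.13e-06 to 1.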

How the data were processed

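The deposited table holds whole-number read counts per gene for 16 libraries, not normalized, beside each gene's exons and length. The submitters' processing notes list the aligner STAR 2.4.2a, the build galGal5, featureCounts from Subread 1.4.5, and DESeq2. Neither annotation release nor strand setting is given in the sources used here. For that reason, genes with exons overlapping another gene are marked uncertain. Libraries were made with SMART-Seq v4 and Nextera XT, per the labels. Of 24881 features, 7091 had no count. Total counts ranged from 5721022 to 24929531.

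Counts were analysed in R 4.3.3 with edgeR 4.0.16 and limma 3.58.1: TMM scaling, the default expression filter (14081 genes), 1 robust quasi-likelihood fit over all 16 libraries with group as the factor (10 residual degrees of freedom, common biological coefficient of variation 0.478), and Benjamini-Hochberg adjustment over all genes tested. CPM are counts scaled to the TMM library size, except for regions, chromosomes and, where stated, the chromosome 1 gene (library total). A standard error (SE) was obtained from each log2 fold change and the root of its F statistic. Intervals of ratios and floors of 3 counts cover counting error only. Exons are merged exon blocks. Thinning used a fixed random seed. The script was run on simulated counts in which all groups had the same spread. The sox10 and sox3 libraries differ in spread, so that run does not check the calls made here.

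Named genes passed the threshold with at least 5 CPM in a compared group, without overlap of libraries (not asked for the difference of contrasts), ranked by fitted fold, at most 2 per direction because no symbols were available. Lists of cell type markers were not used for the same reason. The groups, lists and rules were chosen with earlier results of these data known.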

Additional observations from a re-analysis of the deposited data

How the results depend on the processing

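For sox10 against sox3, the number of changed genes stayed within 1.5 times of 5277 with RLE size factors, without an expression filter, by DESeq2 and limma-voom, with thinned counts, with library sizes that leave out the abundant genes of chromosomes 14 and 1, and with length and chromosome trends removed (5003 to 5960). It was 2626 with the close pairs of libraries (sox3, control, msx1 replicates 1 and 2, each correlated above 0.97) summed, where the sox3 group is 1 sample assumed to vary like the others. It was 3008 with the 5 libraries alone and 2470 when a fold of more than 2 was tested (896 higher, 1574 lower). Leaving out 1 library gave 3359 to 5452. For tfap2b against msx1, summing gave 3397 and leaving out 1 library 4276 to 4843. For the difference of contrasts, DESeq2 called 339 and limma-voom 148. Summing gave 0 (510 at an unadjusted p under 0.05, edgeR), and leaving out 1 library 1 to 200. The cause of these shifts was not tested.

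With the replicate number as a block, 4895 genes passed for sox10 against sox3, 5007 for tfap2b against msx1 and 21 for the difference, where ENSGALG00000012361 (adjusted p 0.0681), ENSGALG00000005580 (0.0805) and ENSGALG00000040504 (0.0754) no longer passed. Deviations of same-numbered libraries from their group means correlated at 0.0038 and 0.0108 for sox10 and sox3, and at -0.0441, 0.1481 and 0.1157 for tfap2b and msx1. Since not every pair exceeded 0.1, the samples were taken to share only a number. This cut-off was not set against libraries with different numbers. The values of 0.1481 and 0.1157 were the highest of all same-numbered pairs, and whether those libraries shared a batch was not tested. The difference in detected genes was -1907 to -1787 when 1 library was left out. No named gene reversed its direction. The median log2 fold change of chromosomes 1 to 5 was -0.02 with RLE and 0.03 among genes of at least 5 CPM, so it has no stable sign, while those of chromosomes 11 to 33 (-0.69 to -0.39), of the longest class of genes (-0.61 to -0.45) and of genes with over 15 exons (-0.78 to -0.59) stayed below 0 in the alternatives run. Of the classes by level, genes below 1 CPM had the smallest shares of calls (14 higher and 189 lower of 1915); how far depth sets this was not tested.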

Other observations

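Among the 37 genes called higher in the sox10 group although their libraries overlapped, the one with the largest fitted fold was chosen after its values were seen. It lies on chromosome 7 (21233409 to 21245324, galGal5, 8 exons, no exonic overlap). It had 2026 CPM, or 16897 counts, in sox10 replicate 2, 13.1 CPM in replicate 3 and 0 in replicate 1. In the sox3 libraries it had 0 and 0.115 CPM, and in the other 11 libraries 0 to 1.08 CPM. Its adjusted p of 0.0191 (quasi-likelihood F test in edgeR, Benjamini-Hochberg) therefore rests on a level that 1 library carries. In all, 9 of the 37 genes had 0 counts in at least 1 sox10 library.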
